A study of Mus musculus with 12 samples.

Results

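The mRNA levels of 7 genes of antibody-producing cells and of antibody transport were followed across TCDD doses in scrapings of mouse proximal ileal epithelium. The genes were Cd79a, Cd79b and Ms4a1 of B cells, Pou2af1, Mzb1 and Jchain of B lineage and plasma cells, and Pigr of the epithelium. They were chosen by name as a functional group, with earlier results of these data known, and their symbols were taken from GENCODE M21. All 7 were found among the 46078 genes listed for each library, and all 7 were among the 15823 genes that passed the filter on low counts. The study used male C57BL/6 mice gavaged every 4 days, 7 times over 28 days, with sesame oil vehicle or with 3, 10 or 30 µg/kg of the dioxin TCDD. The mice were aged 28 days at the first gavage and 56 days when the study ended. Each of the 4 groups held 3 RNA-Seq libraries, 12 in all, labelled as biological replicates, and the labels name no genetic modification. The replicate numbers used below only name libraries.

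B cells carry a membrane immunoglobulin whose signal is passed on by the paired chains Igα and Igβ, encoded by Cd79a and Cd79b, and mature B cells also carry CD20, encoded by Ms4a1. After activation B cells can become plasma cells, which lose most of these surface proteins and secrete antibody. In the gut this antibody is mainly IgA, joined into dimers by the J chain (Jchain). The polymeric immunoglobulin receptor (Pigr) on the basal side of enterocytes binds J chain-containing antibody and carries it to the lumen. Mzb1 encodes a chaperone of the endoplasmic reticulum used in antibody assembly, and Pou2af1 encodes a B cell coactivator of transcription factors bound to the octamer motif. TCDD binds the aryl hydrocarbon receptor (AhR), a transcription factor present in both lymphocytes and epithelium.

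Gene counts totalled 11695887 to 22180274 per library. Dosing was visible at 10 and 30 µg/kg in Cyp1a1, the classic AhR target, at 23.0 ± 4.28 CPM (counts scaled to library size, SD, n = 3) in vehicle and 77.4 ± 60.0, 1075 ± 235 and 2982 ± 334 CPM at 3, 10 and 30 µg/kg. At 3 µg/kg its libraries stood at 141, 68.8 and 22.2 CPM, the last within the vehicle range of 19.0 to 27.5 CPM. The edgeR test described below did not call Cyp1a1 at that dose. The epithelial adhesion gene Epcam stood between 1041 and 1312 CPM in every library, so the defining marker of the labelled tissue was present. Its 30 µg/kg libraries (1041 to 1094 CPM) lay below those of vehicle (1122 to 1236 CPM), as was so for 12.5% of all genes tested. Vehicle replicate 1 stood apart from the other vehicle libraries in B cell transcripts, as described below, so the 7 genes and the calls of listed B cell genes were also read without it. All comparisons with vehicle share the same 3 vehicle libraries, and their values are therefore set side by side rather than correlated. In bulk scrapings, fewer cells of a type and less RNA per cell cannot be told apart.

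Promoter windows based on RefSeq, from 250 bases before to 50 bases after the start, were available here for 4 of the 7 genes (Jchain, Pou2af1, Cd79a and Pigr). The stretches before the gene start are shown for Cd79a and Pou2af1, whose mRNAs varied together, and for Pigr, which tended the other way. They are given 5′ to 3′ on the gene's strand in build GRCm38.p6. They lie at chr7:24897247-24897380 (Cd79a, plus strand, cut at the start of the GENCODE gene), chr9:51213440-51213689 (Pou2af1, plus strand) and chr1:130826434-130826683 (Pigr, plus strand). Capitals mark matches, on either strand, to 4 motifs: the octamer ATGCAAAT, the AhR core GCGTG, the E-box CACGTG and the E-box CAGGTG.
Cd79a: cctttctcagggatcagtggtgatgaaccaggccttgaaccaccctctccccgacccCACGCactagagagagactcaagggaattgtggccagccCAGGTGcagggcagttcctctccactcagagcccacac
Pou2af1: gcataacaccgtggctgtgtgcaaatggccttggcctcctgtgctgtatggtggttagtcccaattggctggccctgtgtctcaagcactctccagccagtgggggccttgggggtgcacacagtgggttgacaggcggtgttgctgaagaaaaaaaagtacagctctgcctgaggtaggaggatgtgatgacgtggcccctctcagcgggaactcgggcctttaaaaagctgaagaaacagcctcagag
Pigr: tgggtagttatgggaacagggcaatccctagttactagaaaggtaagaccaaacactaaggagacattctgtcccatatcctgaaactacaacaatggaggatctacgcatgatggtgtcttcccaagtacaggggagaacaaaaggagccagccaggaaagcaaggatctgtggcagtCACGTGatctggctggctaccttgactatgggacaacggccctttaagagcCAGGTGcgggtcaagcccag
The Cd79a window held the AhR core on the reverse strand at position -193 from the RefSeq start, where it reads CACGC, and CAGGTG at -154. The Pigr window held CACGTG at -71 and CAGGTG at -20. In the window of Pou2af1 only the AhR core was found, 27 bases past the start, and in that of Jchain only CAGGTG, 6 bases past the start. Among 27025 genes with such a window, 35.2% held the AhR core, 22.6% CAGGTG, 8.09% CACGTG and 1.97% the octamer, so the first of these letters are common in promoters. A match is a description of the letters, and its use was not tested.

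Pigr was the most abundant of the 7 mRNAs by a wide margin. On the scale of CPM per kilobase of exon, which allows levels of different genes to be compared, the vehicle means were 1111 ± 63.3 (SD, n = 3) for Pigr and 68.3 ± 31.4 for Jchain. The other means were 4.11 ± 3.76 for Cd79a, 3.71 ± 2.59 for Pou2af1, 3.55 ± 3.05 for Cd79b, 1.98 ± 0.855 for Mzb1 and 0.958 ± 0.744 for Ms4a1. The last 5 ranges overlapped among the vehicle libraries. Ms4a1 was the lowest of the 5 in each vehicle library (0.210, 0.965 and 1.70), and the order of the rest changed between libraries and is not fixed by these data. Depth limited the low genes: Mzb1 rested on 9 to 67 reads, Cd79b on 8 to 185 and Cd79a on 10 to 222 reads per library, whereas Pigr rested on at least 55049. The genes lie in GRCm38 at chr5:88519809-88527891 (Jchain, ENSMUSG00000067149), chr9:51213708-51240080 (Pou2af1, ENSMUSG00000032053), chr7:24897381-24902197 (Cd79a, ENSMUSG00000003379) and chr11:106311341-106314762 (Cd79b, ENSMUSG00000040592). Ms4a1 (ENSMUSG00000024673) lies at chr19:11249675-11266241, Pigr (ENSMUSG00000026417) at chr1:130826684-130852249 and Mzb1 (ENSMUSG00000024353) on chromosome 18. Mzb1 shares exon bases with Spata24 on the same strand, which makes its low count less certain, and none of the 7 overlaps an antisense exon.

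The means of the 6 lymphocyte genes were lower than vehicle at every TCDD dose and that of Pigr was higher, but no gene of the 7 passed the test at any dose. A gene was called when the Benjamini-Hochberg adjusted p of edgeR's quasi-likelihood test was under 0.05 and the change was at least 1.5-fold. At 3 µg/kg 0 of 7 were called, against 0.228% of all genes tested, and 1 of 7 (Mzb1) had an unadjusted p under 0.05. At 10 µg/kg 0 of 7 were called, against 0.613% of all genes, and Mzb1 and Pigr had an unadjusted p under 0.05. At 30 µg/kg 0 of 7 were called, against 3.97% of all genes, and Cd79a, Cd79b, Ms4a1 and Mzb1 had an unadjusted p under 0.05. Over all genes the share with an unadjusted p under 0.05 was 11.4%, 15.9% and 21.6% at 3, 10 and 30 µg/kg. DESeq2 called 0, 1 (Mzb1) and 2 (Cd79b and Ms4a1) of the 7 in dose order, beside 0.531%, 1.66% and 5.09% of all genes, and limma-voom called 0 at each dose, beside 0.177%, 0.600% and 4.25%. The median log2 change of the 7 was -0.83, -1.01 and -1.11 at 3, 10 and 30 µg/kg, beside 0.00, -0.01 and -0.02 over all genes tested.

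**Figure D1:**
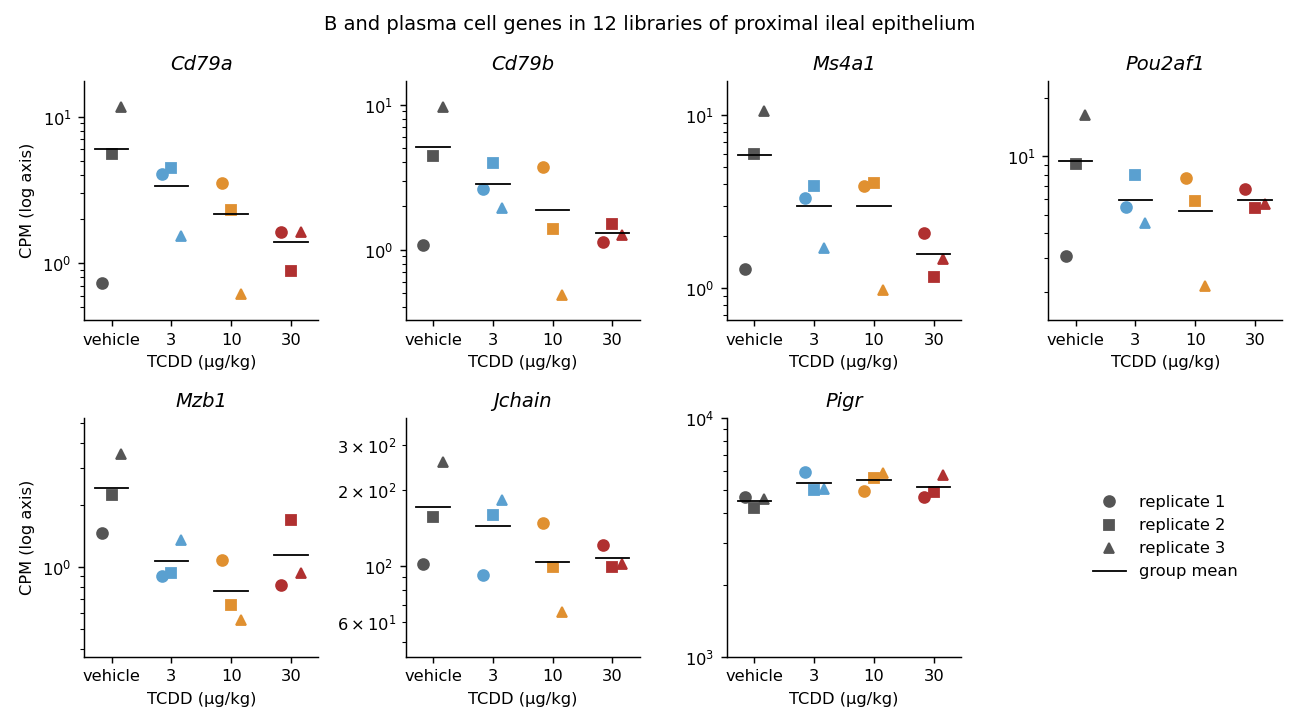
Each panel plots 1 gene, with CPM on a log axis against the TCDD dose, a symbol for each of the 12 libraries and a line at the mean of each group of 3. Vehicle replicate 1 lies far below the other vehicle libraries for Cd79a (0.733 against 5.55 and 11.7 CPM), Cd79b and Ms4a1, while Pigr stays between 4181 and 5926 CPM in every library.

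The B cell receptor chain Cd79a had the largest SD of log2 CPM within groups of the 7 genes (1.24), and its highest library stood at 19.0 times its lowest, beside 19.8 times for Cd79b. In vehicle it was at 0.733, 5.55 and 11.7 CPM in replicates 1, 2 and 3, and at 3 µg/kg it was at 4.08, 4.44 and 1.53 CPM. It was at 3.53, 2.32 and 0.612 CPM at 10 µg/kg and at 1.63, 0.889 and 1.64 CPM at 30 µg/kg. Vehicle replicate 3 was the highest of all 12 libraries and vehicle replicate 1 was the second lowest, so the vehicle range covered every treated library but replicate 3 of 10 µg/kg. The group means fell in dose order, from 5.98 ± 5.48 CPM (SD, n = 3) in vehicle to 3.35 ± 1.59, 2.15 ± 1.47 and 1.39 ± 0.433 CPM. The log2 difference from vehicle was -0.85 and -1.50 at 3 and 10 µg/kg. At the highest dose it reached -2.07 ± 0.78 (SE), where the 95% interval ran from -3.75 to -0.38 and the edgeR adjusted p was 0.143.

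Its partner Cd79b followed the same order of libraries at both ends. It was at 1.07, 4.44 and 9.72 CPM in vehicle and at 2.64, 3.97 and 1.94 CPM at 3 µg/kg. At 10 µg/kg it was at 3.74, 1.38 and 0.490 CPM, and at 30 µg/kg at 1.12, 1.51 and 1.26 CPM. The 30 µg/kg libraries lay close together just above vehicle replicate 1 and far below the other vehicle libraries, so the groups overlapped through 1 vehicle library. The log2 difference at 30 µg/kg was -1.98 ± 0.72 (SE), with a 95% interval from -3.54 to -0.43 and an edgeR adjusted p of 0.128.

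Ms4a1, which encodes CD20, was at 1.30, 5.97 and 10.5 CPM in vehicle and at 3.32, 3.91 and 1.70 CPM at 3 µg/kg. It was at 3.89, 4.06 and 0.980 CPM at 10 µg/kg and at 2.09, 1.16 and 1.48 CPM at 30 µg/kg. Replicate 3 of 10 µg/kg and replicate 2 of 30 µg/kg were the treated libraries below the lowest vehicle library, and all other treated libraries lay within the vehicle range. The log2 difference at 30 µg/kg was -1.88 ± 0.65 (SE), with a 95% interval from -3.29 to -0.47 and an edgeR adjusted p of 0.114. For these 3 genes the interval at 30 µg/kg spanned more than 2 log2 units, so the size of the difference was poorly fixed.

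Pou2af1, the octamer coactivator, differed less between groups. It was at 3.05, 9.12 and 16.2 CPM in vehicle, at 5.43, 7.94 and 4.52 CPM at 3 µg/kg and at 7.70, 5.88 and 2.14 CPM at 10 µg/kg. At 30 µg/kg its libraries lay close together at 6.79, 5.42 and 5.69 CPM. As for the receptor chains, vehicle replicate 3 was the highest library and the 30 µg/kg libraries lay above vehicle replicate 1. The log2 differences from vehicle were -0.67, -0.87 and -0.66 at 3, 10 and 30 µg/kg, and the 95% interval at 30 µg/kg ran from -1.74 to 0.42 (edgeR adjusted p 0.476).

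Mzb1 was the lymphocyte gene that separated from vehicle most clearly at the lower doses. It was at 1.47, 2.22 and 3.52 CPM in vehicle, at 0.906, 0.934 and 1.35 CPM at 3 µg/kg and at 1.08, 0.653 and 0.551 CPM at 10 µg/kg. At 30 µg/kg it was at 0.817, 1.69 and 0.931 CPM. All libraries of 3 and 10 µg/kg lay below all vehicle libraries, and replicate 2 of 30 µg/kg overlapped with vehicle. The log2 difference was -1.17 ± 0.40 (SE), -1.66 ± 0.42 and -1.11 ± 0.40 at 3, 10 and 30 µg/kg. The edgeR adjusted p was 0.305, 0.0996 and 0.124 in the same order, and DESeq2 gave 0.0236 at 10 µg/kg. Of the 7 genes, Mzb1 was the one whose libraries lay wholly below vehicle at 3 µg/kg (6.84% of all genes tested did so) and at 10 µg/kg (11.0% did so). At 30 µg/kg none of the 7 lay wholly below vehicle, beside 12.5% of all genes.

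Jchain, the most abundant of the lymphocyte genes, was at 102.0, 156 and 258 CPM in vehicle and at 91.8, 160 and 182 CPM at 3 µg/kg. It was at 148, 98.7 and 65.5 CPM at 10 µg/kg and at 121, 99.4 and 101.7 CPM at 30 µg/kg. The 2 highest values of all 12 were those of vehicle replicate 3 and 3 µg/kg replicate 3, and the lowest was that of 10 µg/kg replicate 3. The 30 µg/kg libraries lay near vehicle replicate 1. The log2 difference was -0.25, -0.72 and -0.68 at 3, 10 and 30 µg/kg, and at 30 µg/kg the 95% interval ran from -1.42 to 0.07 (edgeR adjusted p 0.275).

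Pigr, the epithelial receptor for the antibodies these cells make, had a higher mean than vehicle at each dose and was not called at any. It was at 4664, 4181 and 4565 CPM in vehicle, at 5926, 5007 and 5025 CPM at 3 µg/kg and at 4943, 5617 and 5891 CPM at 10 µg/kg. At 30 µg/kg it was at 4656, 4892 and 5779 CPM. All libraries of 3 and 10 µg/kg lay above all vehicle libraries, while replicate 1 of 30 µg/kg lay within the vehicle range. Pigr was the 1 gene of the 7 whose libraries lay wholly above vehicle at 3 µg/kg (8.58% of all genes tested did so) and at 10 µg/kg (11.9%), and none of the 7 did so at 30 µg/kg (14.2%). The log2 difference was 0.25, 0.29 and 0.19 at 3, 10 and 30 µg/kg, each with an SE of 0.13, and the edgeR adjusted p was 0.486, 0.295 and 0.42. At 10 µg/kg the 95% interval ran from 0.01 to 0.58, and at none of the 3 doses did it reach a 1.5-fold rise.

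**Figure D2:**
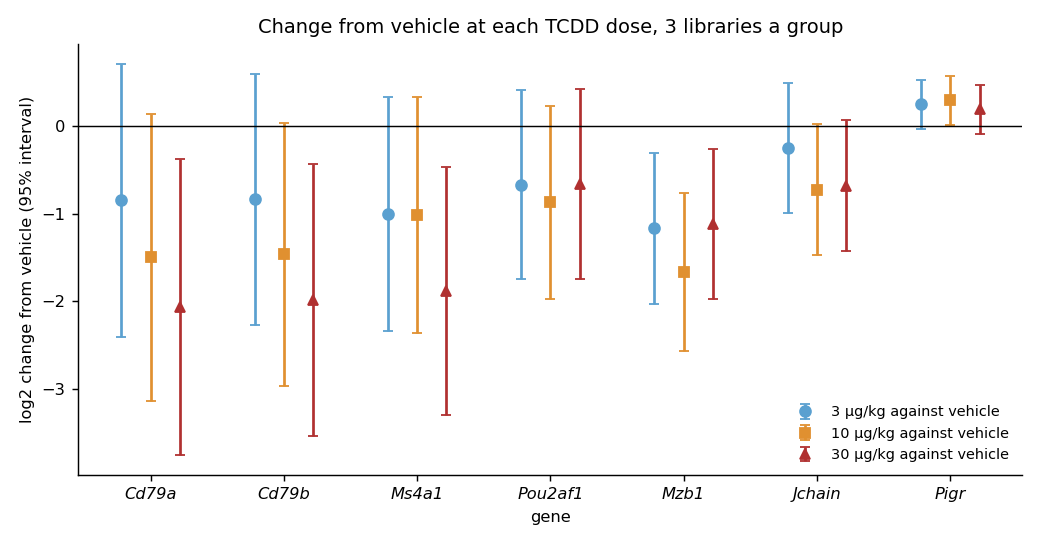
For each gene the log2 difference from vehicle is plotted at 3, 10 and 30 µg/kg with its 95% interval from the edgeR model. The intervals of Cd79a, Cd79b and Ms4a1 at 30 µg/kg and of Mzb1 at all doses lie below 0, and the intervals of Pigr are the narrowest, within -0.09 and 0.58.

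Among the doses themselves no difference passed the test for any of the 7 genes. Between 10 and 3 µg/kg 0 of 7 were called, beside 0.158% of all genes, between 30 and 3 µg/kg 0 of 7 beside 4.87%, and between 30 and 10 µg/kg 0 of 7 beside 2.77%. None of the 7 had an unadjusted p under 0.05 in these 3 edgeR comparisons. The mean CPM of Cd79a and Cd79b was ordered vehicle, 3, 10, 30 µg/kg, and that of Ms4a1 was nearly equal at 3 and 10 µg/kg (2.98 CPM at both) and lowest at 30 µg/kg. For Mzb1, Pou2af1 and Jchain the lowest mean was at 10 µg/kg, and for Pigr the highest mean was at 10 µg/kg. No difference between neighbours in these orders passed the test.

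A slope over the dose rank asked for an ordered change, and is given here as the log2 difference between its ends. It was -2.08 ± 0.67 (SE) for Cd79a, -2.00 ± 0.61 for Cd79b and -1.71 ± 0.57 for Ms4a1, with edgeR adjusted p of 0.0955, 0.0826 and 0.109. For Mzb1 it was -1.22 and for Jchain -0.75, with adjusted p of 0.133 and 0.189. Of the 7 genes 0 were called for the slope, beside 3.29% of all genes, and 5 of 7 had an unadjusted p under 0.05, beside 19.7% of all genes. DESeq2 called Cd79b and Ms4a1 for the slope, beside 4.56% of all genes. The edgeR test of any difference among the 4 groups called 0 of 7, beside 6.78% of all genes, and its lowest adjusted p was 0.0708, for Mzb1.

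The differences of the B cell genes rested on single vehicle libraries. Without vehicle replicate 1, edgeR called Cd79a, Cd79b and Ms4a1 lower at 30 µg/kg, with log2 differences of -2.57, -2.45 and -2.34 and adjusted p of 0.0253, 0.0336 and 0.021, beside 4.03% of all genes called. The slope without it was -2.51, -2.39 and -2.09, called for all 3 (adjusted p 0.0152, 0.0209 and 0.0263), beside 3.94% of all genes. Without vehicle replicate 3 the same differences were -1.15, -1.12 and -1.18, with adjusted p of 0.465, 0.437 and 0.373, beside 2.70% of all genes called. The difference of Pou2af1 at 30 µg/kg was -1.07 without vehicle replicate 1 and -0.03 without vehicle replicate 3, and that of Jchain was -0.94 and -0.26. Mzb1 kept a difference between -1.45 and -0.73 and Pigr one between 0.10 and 0.26 at 30 µg/kg over all settings tried.

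**Figure D3:**
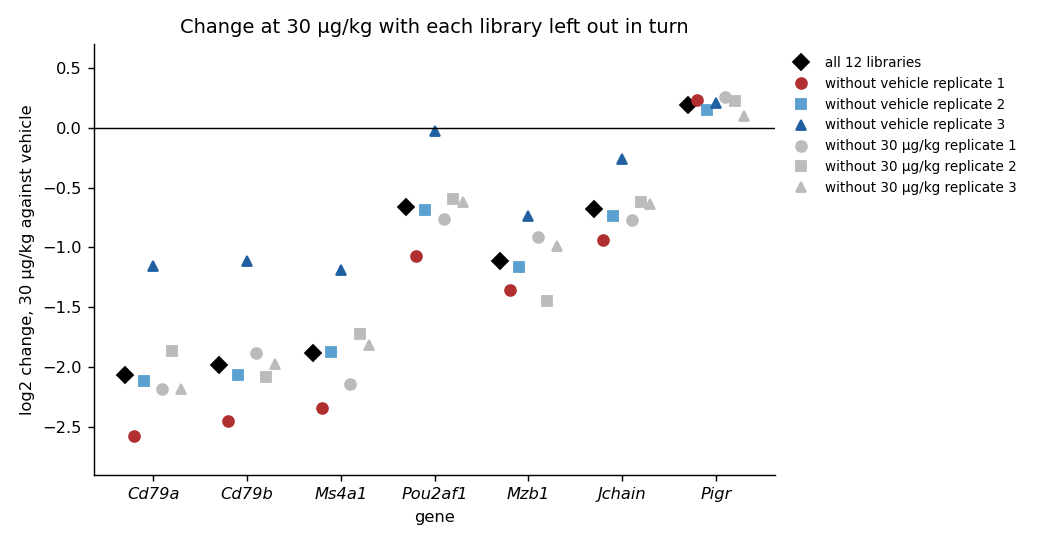
The log2 difference between 30 µg/kg and vehicle is plotted for each gene with all 12 libraries and with each of the 6 libraries of these groups left out in turn. Leaving out vehicle replicate 3 moved Cd79a from -2.07 to -1.15, and leaving out vehicle replicate 1 moved it to -2.57.

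The 6 lymphocyte genes rose and fell together from library to library, and Pigr tended the other way, more weakly within groups. Over the 12 libraries, on log2 CPM, Pearson's r was 0.96 between Cd79a and Ms4a1, 0.93 between Cd79a and Cd79b, and 0.90 between Cd79a and Pou2af1. It was 0.73 between Jchain and Mzb1 and 0.80 between Jchain and Pou2af1, and over the 15 pairs of the 6 genes it ran from 0.50 to 0.96. Once group means were removed, Pou2af1 stood at 0.96 with both Cd79a and Cd79b, at 0.97 with Ms4a1, at 0.81 with Jchain and at 0.60 with Mzb1. Mzb1, with 9 to 67 reads per library, had r from 0.44 to 0.73 with the other lymphocyte genes on that scale. Pigr had r between -0.73 (with Mzb1) and -0.32 (with Cd79a). Once group means were removed, r of Pigr ran from -0.61 (with Jchain) to -0.20 (with Cd79a), and was -0.39 with Mzb1. These are descriptions over 12 points, in which all genes share each library and its depth.

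Outside the 7 genes and the immunoglobulin segments, the mRNAs most like the mean profile of Cd79a, Cd79b and Ms4a1 over the 12 libraries were Bank1 (r = 0.98), Cd22 (0.97), Clu (0.96), Cd72 (0.95) and Rftn1 (0.95). Bank1 and Cd22 are B cell signalling genes and Clu is a marker of follicular dendritic cells in lymphoid tissue. Those most like the mean profile of Jchain, Mzb1 and Pou2af1 were Mef2c (0.93), Zeb2 (0.92), Lyz2 (0.91), Irf4 (0.91) and Myo5a (0.91), of which Irf4 is a transcription factor of plasma cells and Lyz2 is a macrophage lysozyme. Those most like Pigr were Ermp1 (0.90), Zc3h18 (0.89), Ccdc91 (0.88), Scaper (0.88) and Stk16 (0.87). Of 139 immunoglobulin segments tested, 3 were among the 50 genes most like the profile of Cd79a, Cd79b and Ms4a1. For the profile of Jchain, Mzb1 and Pou2af1 it was 1 among the 50, and for Pigr 0.

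A wider list of 18 B cell identity genes showed how unevenly B cell RNA was present. All 17 that were tested had estimates below vehicle at each dose, with medians of -1.24, -1.61 and -2.58 on the log2 scale at 3, 10 and 30 µg/kg, beside 0.00, -0.01 and -0.02 over all genes. None was called by edgeR at any of the 3 doses, beside 0.228%, 0.613% and 3.97% of all genes. At an unadjusted p under 0.05 were 0, 4 and 17 of them, beside 11.4%, 15.9% and 21.6% of all genes. For the slope 1, Cd22, was called (-2.53, adjusted p 0.0398), beside 3.29% of all genes. DESeq2 called 0, 0 and 4 of the list at 3, 10 and 30 µg/kg, beside 0.531%, 1.66% and 5.09% of all genes. The limma-voom fit called 0, beside 0.177%, 0.600% and 4.25%. Without vehicle replicate 1, edgeR called 14 at 30 µg/kg, beside 4.03% of all genes, and the slope of Cd22 was -2.97 (adjusted p 0.00667). That library was singled out by its low B cell transcripts, so the 14 are a description only. Without vehicle replicate 3 edgeR called 0 at that dose, beside 2.70% of all genes, and the slope of Cd22 was -1.72 (adjusted p 0.195). Cd22, Cd37, Cd72, Cxcr5, Pax5 and Bcl11a overlap antisense genes, and without the strand setting their reads cannot be told apart from those.

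The counts of the defining transcription factor Pax5 were 0, 114 and 318 reads in vehicle replicates 1, 2 and 3, and 46, 94 and 12 reads at 3 µg/kg. They were 39, 43 and 1 reads at 10 µg/kg and 2, 0 and 9 reads at 30 µg/kg. The complement receptor Cr2, found on mature and follicular B cells, had 0, 55 and 225 reads in vehicle and 0, 0 and 19 reads at 30 µg/kg. Of the 18 genes, 6 were at 0 in vehicle replicate 1, 5 in 30 µg/kg replicate 1 and 6 in 30 µg/kg replicate 2, 2 each in replicate 3 of 3 and of 10 µg/kg, and 0 in the other 7 libraries. At or under 3 reads were 8 of them in vehicle replicate 1 and 8 in 10 µg/kg replicate 3. In replicates 1 and 2 of 30 µg/kg 9 and 11 were so low, and in 3 µg/kg replicate 3 it was 5. Replicate 1 of 3 µg/kg and replicate 3 of 30 µg/kg held 1 each. Libraries with 5 or more genes at or under 3 reads thus occurred in every group. A count of 0 allowed up to 3 reads, or 0.139 to 0.267 CPM depending on the library. The summed level of the list was 38.5 to 182 CPM in vehicle, 34.9 to 74.5 at 3 µg/kg, 27.1 to 55.2 at 10 µg/kg and 28.1 to 40.6 at 30 µg/kg, of which Bcl11a, also expressed outside B cells, gave 14.9 to 27.9 CPM in every library. Cd79a (r = 0.92), Ms4a1 (0.92) and Cd79b (0.90) followed this sum over the 12 libraries, and Jchain (0.71) and Mzb1 (0.62) followed it less closely.

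**Figure D4:**
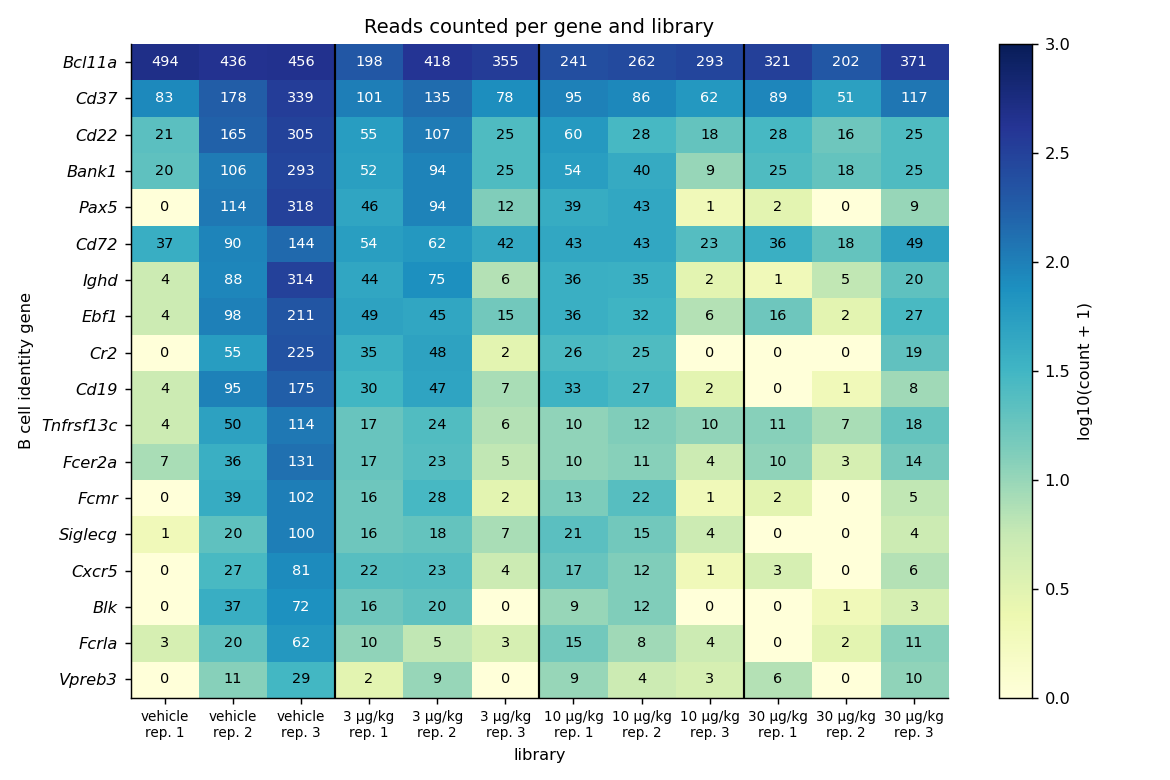
Each cell gives the reads counted for 1 of 18 B cell identity genes (rows) in 1 library (columns), shaded by log10(count + 1), with lines between the vehicle, 3, 10 and 30 µg/kg groups. Vehicle replicate 1 is as pale as 10 µg/kg replicate 3 and the first 2 libraries of 30 µg/kg, and vehicle replicate 3 is the darkest column.

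Of 8 immunoglobulin constant regions tested, 1 was called at 30 µg/kg and none at the lower doses. Igha, the heavy chain of IgA, was at 837, 1197 and 1544 CPM in vehicle and at 592, 900 and 861 CPM at 3 µg/kg. It was at 968, 664 and 460 CPM at 10 µg/kg and at 1195, 1013 and 1054 CPM at 30 µg/kg, so the 30 µg/kg libraries lay inside the vehicle range. Its log2 difference was -0.60, -0.77 and -0.13 at 3, 10 and 30 µg/kg, with edgeR adjusted p of 0.416, 0.197 and 0.821. Ighm, the heavy chain of IgM on naive B cells, was at 4.12, 15.4 and 38.0 CPM in vehicle and at 4.19, 4.18 and 4.93 CPM at 30 µg/kg, with a log2 difference there of -2.11 (adjusted p 0.0888). The called gene was Ighg2b (-3.85, adjusted p 0.0307), at 1.30, 10.9 and 38.2 CPM in vehicle and 1.53, 1.24 and 0.712 CPM at 30 µg/kg, and Ighg1 and Ighg2b were called for the slope. Reads of the IgG classes can be split between near-identical genes and are uncertain.

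Set against IgA, Jchain was lowest at 30 µg/kg. The number of Jchain reads per Igha read was 0.122, 0.130 and 0.167 in vehicle, 0.155, 0.177 and 0.211 at 3 µg/kg and 0.153, 0.149 and 0.142 at 10 µg/kg. At 30 µg/kg it was 0.101, 0.0981 and 0.0965, below each of the other 9 libraries. The same held per read of Igkc, the kappa light chain, with 0.247 to 0.258 at 30 µg/kg, 0.360 to 0.463 in vehicle, 0.599 to 0.645 at 3 µg/kg and 0.412 to 0.571 at 10 µg/kg. The ratio was chosen after its values were seen and is a description with no test. Differences at 30 µg/kg also varied with transcript length. The median log2 difference was 0.44 for protein-coding genes of 500 to 1000 exon bases and 0.03 for those of 2000 to 4000. Jchain has 2517 exon bases and Igha 2668, both in the longer of these ranges, and Igkc has 532, in the shorter. The part of length in these ratios was not tested.

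**Figure D5:**
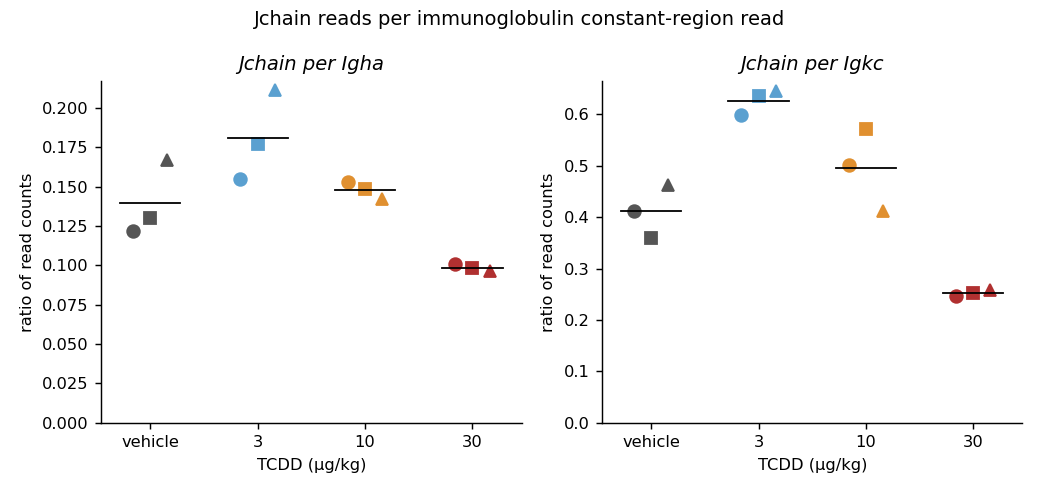
Reads of Jchain per read of Igha (left) and per read of Igkc (right) are plotted for each library by TCDD dose, with axes from 0 and a line at the group mean. The 3 libraries of 30 µg/kg lie at 0.0965 to 0.101 per Igha read and 0.247 to 0.258 per Igkc read, below the other libraries in both panels.

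Most other plasma cell genes were not called. Of 17 tested, Slamf7, a surface receptor of plasma cells, NK cells and T cells, was called lower at 10 and 30 µg/kg, and 16 were not called at any dose. Slamf7 was at 6.15, 6.43 and 8.62 CPM in vehicle, 4.60, 4.73 and 4.81 at 3 µg/kg, 3.53, 4.28 and 3.18 CPM at 10 µg/kg and 3.37, 2.75 and 3.12 CPM at 30 µg/kg, with no overlap between vehicle and any dose. Of all genes tested, 6.84%, 11.0% and 12.5% lay wholly below vehicle at 3, 10 and 30 µg/kg. The log2 difference of Slamf7 was -0.95 ± 0.18 (SE) at 10 µg/kg (edgeR adjusted p 0.0332) and -1.19 ± 0.18 at 30 µg/kg (adjusted p 0.00218), and it overlaps an antisense gene. The median of the list was -0.07, -0.14 and -0.03 at 3, 10 and 30 µg/kg. Its most abundant members, Edem1, Xbp1, Txndc5 and Ell2, serve secretion and are expressed in epithelium too. Xbp1, the transcription factor of the secretory program, was at 144 to 194 CPM in vehicle and 157 to 168 CPM at 30 µg/kg.

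Among genes that draw IgA plasma cells to the gut or support IgA switching, the chemokine Ccl28 was called higher. Ccl28 was at 38.4, 33.9 and 35.1 CPM in vehicle, 58.7, 48.9 and 62.7 at 3 µg/kg, 71.0, 70.5 and 78.6 CPM at 10 µg/kg and 65.6, 82.6 and 93.5 CPM at 30 µg/kg. Each treated library lay above each vehicle library, beside 8.58%, 11.9% and 14.2% of all genes tested wholly above vehicle at 3, 10 and 30 µg/kg. The log2 difference was 0.67 at 3 µg/kg (edgeR adjusted p 0.0753), 1.04 ± 0.13 (SE) at 10 µg/kg (adjusted p 0.00211) and 1.17 ± 0.13 at 30 µg/kg (adjusted p 2.37e-04). Ccl25, another gut-homing chemokine of the small intestine, was at 246 to 256 CPM in vehicle, 289 to 329 CPM at 3 µg/kg, 288 to 315 CPM at 10 µg/kg and 237 to 292 CPM at 30 µg/kg. At 3 and 10 µg/kg Ccl25 was thus among the 8.58% and 11.9% of genes wholly above vehicle, and at 30 µg/kg its libraries overlapped with vehicle. Its log2 difference was 0.28, 0.25 and 0.07 in dose order, with edgeR adjusted p of 0.302, 0.229 and 0.704. Aldh1a1, which makes retinoic acid, was called lower at 30 µg/kg, from 102.0, 94.3 and 112 CPM in vehicle to 62.6, 71.8 and 70.1 CPM (log2 difference -0.59, adjusted p 0.00961). Of 13 genes tested on this list, 11 were not called at 30 µg/kg, and the median there was 0.07.

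Of 18 genes that regulate Pigr or carry antibody across the epithelium, 0 were called at 3 and 10 µg/kg by edgeR (3 at an unadjusted p under 0.05 at each dose, all higher) and 1 was called at 30 µg/kg. This was Il17ra, a receptor for interleukin 17, at 25.9, 32.0 and 32.0 CPM in vehicle and 18.2, 22.0 and 19.3 CPM at 30 µg/kg (log2 difference -0.60, adjusted p 0.0164). Myo5b, a motor of apical vesicle traffic, and Hnf4a, an enterocyte transcription factor, had log2 differences of 0.10 and -0.08 at 30 µg/kg. The list medians were 0.04, 0.04 and -0.04. Per read of Epcam, Pigr had 3.38 to 4.07 reads in vehicle, 4.40 to 4.52 at 3 µg/kg, 4.27 to 5.43 at 10 µg/kg and 4.26 to 5.55 at 30 µg/kg. Every treated library thus lay above every vehicle library in this ratio, which was chosen after its values were seen. No share for other ratios of genes is given beside it. An exact permutation test of log2 ratios gave p of 0.1 at each dose, the lowest that 3 against 3 libraries allow, so it could not pass 0.05. The Epcam level itself at the highest dose lay wholly below vehicle, as given above, and the Pigr level overlapped with it.

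Genes of follicles and of the epithelium above them were also read. Of 13 germinal centre and follicle genes tested, Ltb (lymphotoxin beta) was called lower at 30 µg/kg, at 1.01, 2.50 and 2.89 CPM in vehicle and 0.306, 0.356 and 0.986 CPM at 30 µg/kg (log2 difference -1.91, edgeR adjusted p 0.0379). The median of this list at 30 µg/kg was -1.91, and several of its genes (Cr2, Fcer2a and Tnfrsf13c) are B cell genes of the list above. Of 7 M cell genes tested, Spib, which B cells express as well, was called lower at 30 µg/kg (log2 difference -1.17, adjusted p 0.0471), at 5.08, 9.49 and 14.5 CPM in vehicle and 4.09, 4.44 and 4.44 CPM at 30 µg/kg. The vehicle replicates stood in the same order for Spib, Ltb, Cd79a and Pax5.

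The calls of these listed genes were read again with each library of the compared groups left out in turn. Without vehicle replicate 1, the log2 differences at 30 µg/kg were -2.58 for Ighm, -4.39 for Ighg2b, -2.23 for Ltb and -1.47 for Spib, all called by edgeR (adjusted p 0.0174, 0.00219, 0.0134 and 0.00509). Without vehicle replicate 3 they were -1.14, -2.39, -1.64 and -0.76, none of them called (adjusted p 0.355, 0.125, 0.123 and 0.174). Over the 6 libraries of these groups, Slamf7 and Ccl28 were called at 30 µg/kg whichever was left out, Aldh1a1 in 4 of the 6 cases, Ltb and Il17ra in 2 of 6, and Ighg2b and Spib in 1 of 6, that without vehicle replicate 1. The call of Ccl28 at 10 µg/kg was made in all 6 cases and that of Slamf7 in 0 of 6. For the slope, Cd22 was called in 3, Ighg1 in 4 and Ighg2b in 11 of 12 cases.

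No listed marker of T cells, macrophages, mesenchyme or epithelium was called lower. Of 15 T cell genes tested, 3 were called higher at 30 µg/kg, namely Cd3g (log2 difference 0.71, edgeR adjusted p 0.00478), Cd7 (0.71, adjusted p 0.013) and Gzmb (0.66, adjusted p 0.043), beside 3.97% of all genes. At that dose 6 of the 15 had estimates below vehicle, and the median of the list was 0.16. With 1 of the 6 libraries of these groups left out in turn, Cd3g was called each time, Cd7 in 5 of 6 cases and Gzmb in 2 of 6. The summed level was 282 to 323 CPM in vehicle and 376 to 431 CPM at 30 µg/kg. Among its most abundant members, Gzma was at 93.6 to 113 CPM in vehicle and 126 to 158 CPM at 30 µg/kg, and Gzmb at 39.7 to 54.5 and 63.2 to 85.5 CPM. None of 14 macrophage and dendritic cell genes was called at any dose by edgeR, and those with an unadjusted p under 0.05 were 3 and 4 with lower estimates at 3 and 10 µg/kg and 4 with higher ones at 30 µg/kg. The medians of that list were -0.40, -0.46 and 0.08 in dose order. Its summed level was 77.8 to 110 CPM in vehicle, 61.8 to 76.4 CPM at 3 µg/kg, 59.7 to 90.7 CPM at 10 µg/kg and 107 to 111 CPM at 30 µg/kg, so the libraries of 3 µg/kg lay below vehicle. None of 14 mesenchyme genes was called (0, 8 and 0 at an unadjusted p under 0.05), with sums of 162 to 267 CPM in vehicle, 68.0 to 130 CPM at 10 µg/kg and 121 to 205 CPM at 30 µg/kg. Of 16 epithelial genes 1 was called, Cldn3, higher at 30 µg/kg (log2 difference 0.79, adjusted p 7.88e-04), and the sum was 33886 to 37372 CPM in vehicle and 31455 to 41108 CPM at 30 µg/kg. Over the 12 libraries Pigr had r = -0.77 with the mesenchyme sum, -0.63 with the macrophage sum and 0.67 with the T cell sum, and the part of these cells in its difference was not tested.

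Libraries also differed in the phase of the circadian clock, read as the mean standardised level of Dbp-side genes less that of Arntl-side genes. The score was positive in vehicle replicates 2 and 3, in replicate 1 of 3 and of 10 µg/kg and in replicates 1 and 2 of 30 µg/kg, and negative in the other 6 libraries. Among the positive libraries Cd79a was at 5.55 and 11.7 CPM in vehicle, 4.08 at 3 µg/kg, 3.53 at 10 µg/kg and 1.63 and 0.889 CPM at 30 µg/kg. Among the negative ones it was at 0.733 CPM in vehicle, 4.44 and 1.53 CPM at 3 µg/kg, 2.32 and 0.612 CPM at 10 µg/kg and 1.64 CPM at 30 µg/kg. The vehicle libraries thus held the highest Cd79a of the positive libraries, whereas the lone vehicle library among the negative ones was lower than 4 of the 5 treated ones. With the score as a covariate, edgeR called 0 of 7 genes at each dose, beside 0.272%, 0.790% and 5.49% of all genes at 3, 10 and 30 µg/kg, and 1 of 7, Cd79b, for the slope (-1.77, adjusted p 0.0446), beside 4.48%. With 1 to 2 libraries a dose on each side no test within them was made.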

How the data were processed

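RNA was sequenced from 12 libraries of scraped proximal ileal epithelium, 3 per group, and the groups were taken from the dose in the labels. The authors deposited unnormalised read counts, listed by Ensembl gene in a separate file for each library. The submitters' processing notes name FastQC 0.11.3, Trimmomatic 0.33, TopHat2 2.1.0, SAMtools 1.2.0, HTSeq 0.6.1, DESeq and build GRCm38. The annotation release and the strand setting are not given in the sources used here. Per the labels, libraries were made with the Ovation Mouse kit. Entries for reads that matched no gene (25.0 to 30.1% of all entries), more than 1 gene (0.414 to 0.728%) or more than 1 place (31.4 to 38.8%) entered neither library sizes nor tests. The 30 µg/kg libraries stood apart, with 25.1, 25.0 and 25.4% matching no gene and 36.2, 38.8 and 38.1% matching more than 1 place. In the other groups the lowest share with no gene was 28.0% and the highest with more than 1 place was 34.6%. The part of these shares in the differences and ratios at 30 µg/kg was not tested. Symbols, positions and exon lengths came from GENCODE M21, which matched 45229 of 46078 genes.

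The main test was the quasi-likelihood test of edgeR 4.0.16 (R 4.3.3), with filterByExpr, TMM scaling and a single model of the 4 groups in 12 libraries. Benjamini-Hochberg adjustment ran over the 15823 genes tested. Standard errors were derived from the F statistic. Log2 CPM used a prior count of 2. The floor for a gene not detected was 3 counts, which covers counting error only, since the reads carry no molecular identifiers. Alternatives were DESeq2 1.42.0, limma-voom (limma 3.58.1), other scalings, no filter, only the compared groups, covariates for the library index and for the clock score, and each replicate left out. The scripts were tested on simulated counts.

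All 7 genes are given in every library. Of each related list, genes called at any dose and up to 4 of the most abundant were named, and for each of 3 profiles the 5 protein-coding genes most like it, with a mean count of at least 50. Ratios of 2 genes were chosen after their values were seen. The 7 genes and the lists were chosen with earlier results of these data known. Promoter windows came from RefSeq (GRCm38.p6), and no protein sequence was used.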

Additional observations from a re-analysis of the deposited data

How the results depend on the processing

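Of 455 values of the 7 genes recomputed over the alternatives, 434 kept their direction and their side of the threshold, 15 passed it only under the alternative and 6 turned sign. The turned values were all at 3 µg/kg: with the clock score as covariate the log2 difference was 0.0146 for Jchain, 0.0297 for Cd79a and 0.0405 for Cd79b, and with 1 replicate left out it ran from -0.53 to 0.15, from -1.38 to 0.0466 and from -1.32 to 0.0178, the upper ends being without vehicle replicate 3 and the lower ones without vehicle replicate 1. The number of the 7 genes called was 0 in edgeR at every dose. It was 1 with DESeq2 at 10 µg/kg, beside 1.66% of all genes. At 30 µg/kg it was 2 with DESeq2, beside 5.09%, and 3 with no filter, for which no share of all genes is given here. For the slope it was 1 with the clock score, beside 4.48%, and 2 with DESeq2, beside 4.56%. With 1 replicate left out it ran from 0 to 3 at 30 µg/kg and from 0 to 3 for the slope. Without vehicle replicate 1 it reached 3 in both, beside 4.03% and 3.94% of all genes. Other scalings changed no call of the 7. The labels give no replicate numbers, and with the library index as replicate block 0 of the 7 were called.

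Over all genes, 36 were called at 3 µg/kg, against 71 with no filter, 84 with DESeq2, 18 with the index block, 6 with only the compared groups and 19 to 162 with 1 replicate left out (162 without replicate 1 of 3 µg/kg). At 10 µg/kg 97 were called, against 215 with no filter, 262 with DESeq2, 59 with the index block and 45 to 59 with 1 replicate left out. At 30 µg/kg 628 were called, against 805 with DESeq2 and 433 to 655 with 1 replicate left out. The slope called 520, and 297 to 640 with 1 replicate left out. The cause of these shifts was not tested. With 3 libraries a group and 8 to 222 reads for Cd79a and Cd79b, intervals of these genes spanned more than 3 log2 units at 30 µg/kg.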
